A study of Mus musculus with 6 samples.

Results

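The genes described here encode the semaphorins, a family of secreted and membrane-bound guidance proteins, and their receptors, the plexins and neuropilins. They were taken by gene symbol from tables of RNA sequencing of the medial prefrontal cortex of mice, the part of the frontal lobe near the midline. Of 19943 genes listed in the series, 32 matched: 20 semaphorins, 9 plexins, 2 neuropilins and Plxna4os1, a non-coding RNA transcribed opposite Plxna4. All 32 were listed in every library, and 31 had enough counts to be tested. The exception, Plxna4os1, had 2, 2 and 4 counts in isolated libraries and 1, 2 and 4 in control libraries, and is not a receptor. Its exons share 0 bases with those of Plxna4. Sema5a was singled out because its values in isolated and control libraries stood apart in the comparison described here, so its difference is given as a description without a test.

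There were 3 libraries of mice isolated socially for 3 weeks from weaning onward and 3 of control mice, named here isolated 1 to 3 and control 1 to 3. All were C57BL/6 mice, an inbred laboratory strain, whose age is 6 weeks in the sample labels and 7 weeks in the text on the series. The housing of the controls, the sex of the mice and whether a library held 1 animal or several were not stated in the labels. Whether each replicate is a separate animal is therefore not known, and p-values measure only the spread between these libraries. Every pair of libraries differed beyond counting noise (chi-square of 2.89 to 20.4 per gene), so they are not read as repeat sequencing of 1 RNA sample. Expected counts, the reads estimated for a gene, summed to between 18390902 and 18606573 in isolated libraries and between 18226448 and 18544306 in control libraries. All 12 deep-layer and all 12 upper-layer markers of cortical neurons had counts in every library.

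Semaphorins steer growing axons, mostly by repelling them, and in the mature cortex they also act on dendritic spines and synapses. Class 3 semaphorins are secreted and mostly bind a neuropilin that is joined to an A-type plexin, whereas classes 4 to 7 are tethered to the membrane and mostly bind plexins directly. Plexins pass the signal on through small GTPases and the actin cytoskeleton. Class 5 semaphorins carry thrombospondin repeats that other vertebrate classes lack, and Sema5a can attract or repel axons depending on the proteoglycans it meets.

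The stretch before the start of Sema5a is shown because this member alone stood apart between the groups. It holds the 250 bases before the annotated start on the plus strand (RefSeq, GRCm38.p6), chr15:32244563-32244812. Capitals mark the GC box GGGCGG or its complement CCGCCC, where copies may overlap.
Sema5a: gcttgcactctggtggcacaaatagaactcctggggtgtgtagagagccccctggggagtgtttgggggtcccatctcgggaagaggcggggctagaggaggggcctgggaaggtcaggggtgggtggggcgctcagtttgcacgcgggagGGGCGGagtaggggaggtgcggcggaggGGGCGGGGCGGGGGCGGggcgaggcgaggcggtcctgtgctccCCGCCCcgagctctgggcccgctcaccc
The stretch held 5 GC boxes at a GC content of 72%. Over all 32851 promoters of the table, 32.7% held a GC box in this window and the median GC content was 52.4%. Of the 37 promoters listed for 26 members, 27 held one, and the median GC content of the 37 was 64%. The match is one of letters and was not related to the levels.

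Levels were compared between genes on FPKM, which is scaled for gene length and library size. Sema7a, a semaphorin anchored to the membrane by a lipid, was the most abundant member, at 72.9 ± 4.13 FPKM in isolated and 73.4 ± 12.1 FPKM in control libraries (SD, n = 3 each). It made up between 29.5% and 35.4% of the summed FPKM of the 20 semaphorins in each library. Next came Sema6b at 35.6 FPKM over the 6 libraries, Sema4a at 22.3 FPKM, Plxna2 at 22 FPKM, Plxnd1 at 19.9 FPKM and Plxna1 at 19.4 FPKM. Sema4a, Plxna2, Plxnd1 and Plxna1 overlapped in their ranges over the libraries, so their order was not separated by the spread. At the other end stood the secreted ligands Sema3b at 0.548 FPKM, Sema3d at 0.973 FPKM and Sema3g at 1.61 FPKM.

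**Figure D1:**
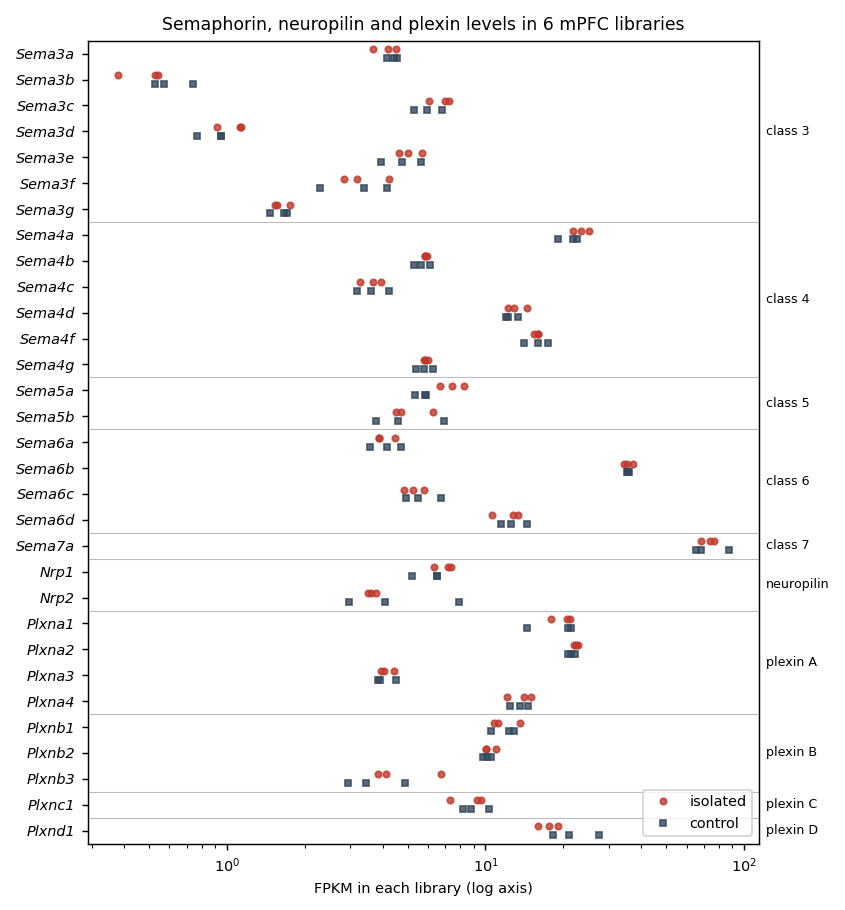
Level of each of the 31 tested members as FPKM in every library (log axis), with isolated libraries as red circles above control libraries as dark squares, grouped by ligand class and receptor family. Sema7a lies highest, Sema3b lowest, and Sema5a is the only member whose circles all lie to the right of its squares.

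Levels were also summed over ligands, receptors and classes. The 20 semaphorins summed to 233 ± 5.31 FPKM in isolated and 229 ± 15.9 FPKM in control libraries, and the 11 receptors to 124 ± 1.26 FPKM and 126 ± 1.27 FPKM (SD, n = 3 each). Class 5 summed to 12.6 ± 1.68 FPKM in isolated and 10.8 ± 1.34 FPKM in control libraries. The 4 A-type plexins summed to 60.3 ± 2.89 FPKM in isolated and 57.9 ± 5.76 FPKM in control libraries. Plexin D, which is Plxnd1 alone, stood at 17.5 ± 1.61 FPKM in isolated and 22.3 ± 4.79 FPKM in control libraries. In all 5 of these values the isolated and control libraries overlapped.

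No member passed the threshold between isolated and control libraries. With edgeR's quasi-likelihood test, 0 of 31 members had an adjusted p under 0.05, with Benjamini-Hochberg adjustment across 15169 genes, and 0% of all genes did. DESeq2 and limma-voom also called 0 members. Of the 30 members other than Sema5a, 1 (Plxnd1) had an unadjusted p under 0.05, against 3.53% of all tested genes. The log2 difference of isolated minus control was above 0 for 18 members and below 0 for 13, and above 0 for 49.2% of all tested genes. With the myelin level as a covariate it was above 0 for 12 members and below 0 for 19, and without isolated 1 above 0 for 22 and below 0 for 9. The median difference was 0.01 over ligands and 0.02 over receptors on the log2 scale, and 0.00 over all tested genes. For 21 of 31 members, or 67.7%, the difference was under 0.1 in size on the log2 scale, near the 62.1% of all tested genes. The median standard error was 0.11 over the members.

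**Figure D2:**
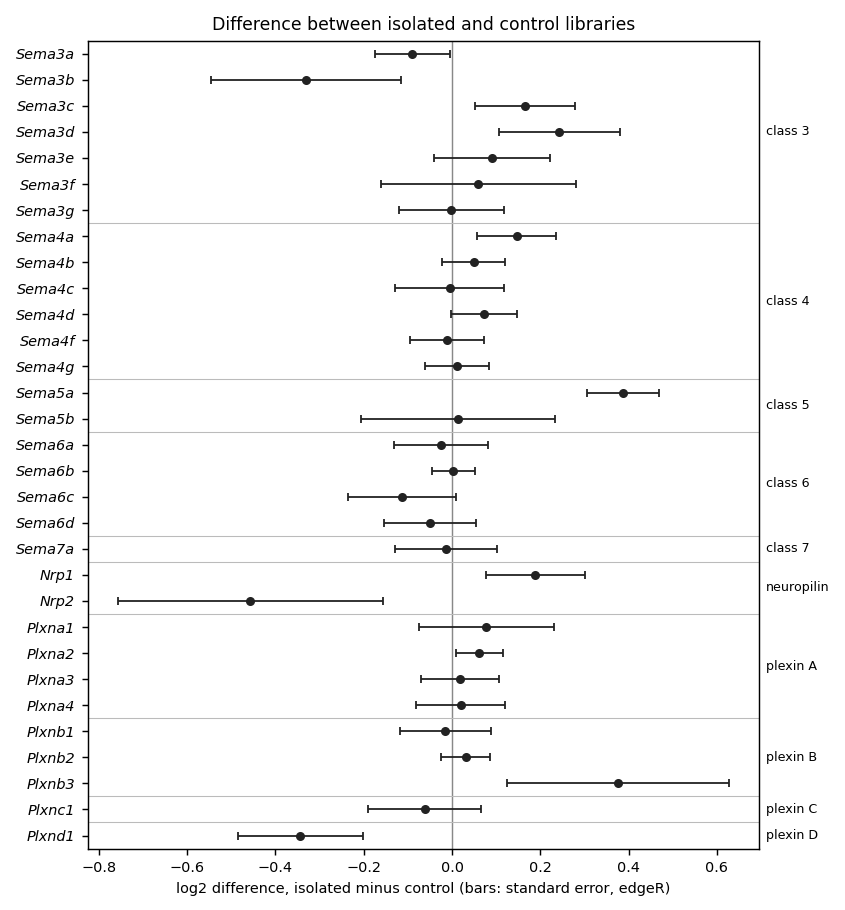
Difference in log2 between isolated and control libraries for the 31 tested members, with bars of 1 standard error from edgeR, in the same order as the levels. Sema5a lies highest at 0.39 and Nrp2 lowest at -0.46, and most others lie within 0.1 of 0.

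Sema5a was the only member whose 6 libraries fell apart by group, and 0 members had every isolated library below every control. Of all tested genes 4.12% were apart upward, 4.73% downward and 8.85% in either direction. Without control 2 and isolated 3 together, 8 of 31 members were apart, beside 29.6% of all tested genes. Levels within a gene are given as CPM, in which a count is divided by the library total and its TMM factor. Sema5a stood at 73.6, 80.9 and 89 CPM in isolated libraries 1 to 3, against 64.2, 57.8 and 64.3 CPM in control libraries 1 to 3. The lowest isolated library thus lay above the highest control, and isolated 3 was the highest of all. The means were 81.1 ± 7.7 CPM and 62.1 ± 3.68 CPM (SD, n = 3 each), 30.7% higher in isolated libraries, with a log2 difference of 0.39 (SE 0.08). On FPKM, Sema5a averaged 7.45 ± 0.786 in isolated and 5.68 ± 0.295 in control libraries. Sema5a (Entrez gene 20356) spans chromosome 15 from 32244813 to 32696341 in GRCm38. Its exons share 0% of their bases with another annotated gene, and the tables list a single transcript for it.

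The summed level of 12 myelin markers was also highest in isolated 3, the library with the most Sema5a. These markers summed to between 3810 and 6995 CPM in isolated and between 2934 and 4891 CPM in control libraries. For 12 of 12 the mean was higher in isolated libraries, and 0 were at 0 in any library. Elsewhere the orders differed: control 1 was above isolated 1 and 2 in the myelin sum, but below both in Sema5a. Sums of oligodendrocyte progenitor, deep-layer and interneuron markers were also highest in isolated 3. Those of astrocytes, endothelial, mural and meningeal cells and upper layers were lowest there. With the myelin level as a covariate the log2 difference of Sema5a was 0.31, and with the level of the striatal markers it was 0.39. Without isolated 3 it was 0.31, and without control 2 and isolated 3 together it was 0.27. All of these reuse the values by which Sema5a was singled out, so they describe the difference and do not test it. The part of myelin in it was not tested. In bulk tissue, more cells of a type and more RNA per cell cannot be told apart.

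Sema5b, the other class 5 ligand, did not share this pattern. It stood at 21.7, 20.6 and 28.3 CPM in isolated libraries 1 to 3 and 21.1, 31.4 and 17.5 CPM in control libraries 1 to 3, with a log2 difference of 0.01 (SE 0.22). Its highest and lowest libraries were both controls, control 2 and control 3. Plxnb3, a plexin that binds Sema5a, is expressed by oligodendrocytes. It stood at 25.3, 23.3 and 40.4 CPM in isolated libraries and 29.8, 20.9 and 17.9 CPM in control libraries. The groups overlapped, and the highest value was again that of isolated 3. The log2 difference of Plxnb3 was 0.38 (SE 0.25), and it was 0.09 without isolated 3 and -0.02 with the myelin level as a covariate. The myelin markers also had higher means in isolated libraries, so this fit cannot separate myelin from group. The part of oligodendrocytes in the difference was not tested.

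**Figure D3:**
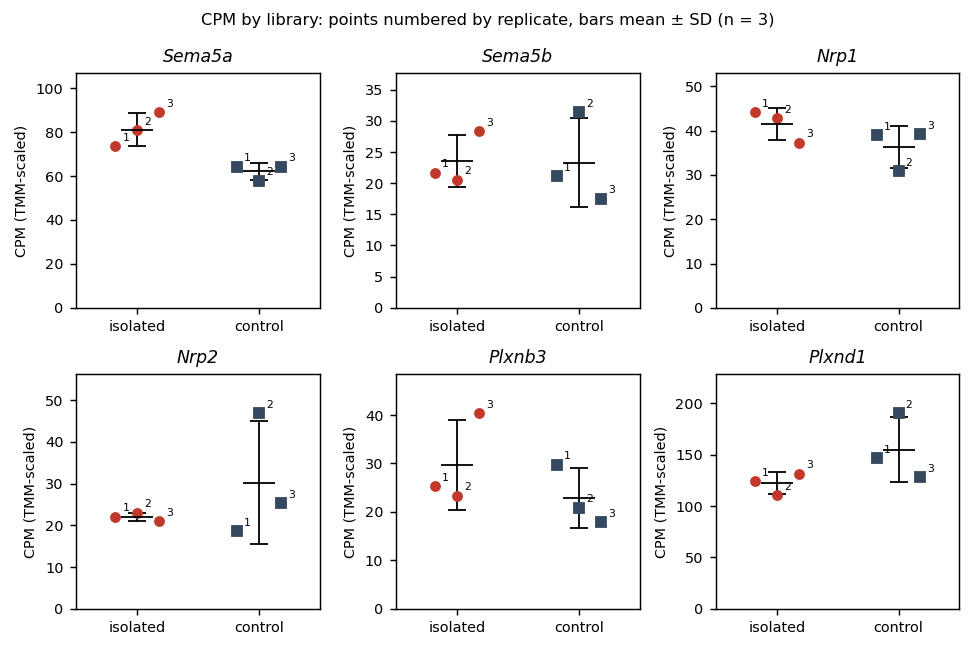
CPM of 6 members in each library, isolated left of control, with points numbered by replicate and bars for mean ± SD (n = 3). Sema5a is separated by group, Nrp2 and Plxnd1 are highest in control 2, and Plxnb3 is highest in isolated 3.

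Among the secreted class 3 ligands, 4 of 7 had a positive and 3 a negative log2 difference, and the groups overlapped for all 7. Sema3c, which signals through both neuropilins and was the most abundant of the class, stood at 35.2, 35.9 and 29.9 CPM in isolated and 29.8, 26.2 and 34 CPM in control libraries, with isolated 3 level with control 1. Sema3a, the prototype collapsing factor for axonal growth cones, averaged 27.2 ± 2.64 CPM in isolated and 29 ± 1 CPM in control libraries (SD, n = 3 each). Sema3b stood at 1.95, 1.41 and 1.92 CPM in isolated and 1.95, 2.07 and 2.64 CPM in control libraries. It rested on 26 to 48 counts per library, and its log2 difference was -0.33 (SE 0.21). Sema3f, which repels axons and limits spines through Nrp2, stood at 9.66, 10.7 and 14.1 CPM in isolated and 11.4, 13.8 and 7.81 CPM in control libraries. Isolated 3 and control 2 were highest and control 3 lowest. The log2 difference was 0.06 (SE 0.22) for Sema3f, 0.24 (SE 0.14) for Sema3d, 0.09 (SE 0.13) for Sema3e and 0.00 (SE 0.12) for Sema3g.

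The neuropilins, which hold class 3 ligands for the plexins and also bind VEGF, went separate ways without either passing the test. Nrp1, the main receptor subunit for Sema3a, stood at 44.1, 42.9 and 37.3 CPM in isolated and 39, 30.8 and 39.2 CPM in control libraries. Isolated 1 and 2 were above all controls and isolated 3 was not, and the log2 difference was 0.19 (SE 0.11). Nrp2 stood at 22, 23.1 and 21 CPM in isolated and 18.6, 46.9 and 25.3 CPM in control libraries. The isolated libraries lay close together, and control 2 lay far above the rest. Its log2 difference of -0.46 (SE 0.30) was 0.01 without control 2. The length listed for Nrp2, which varies with the mix of its 6 transcripts, was 6005, 6033 and 6006 bases in isolated 1 to 3 and 6172, 5918 and 6064 bases in control 1 to 3, lowest in control 2.

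Plxnd1, the receptor that binds Sema3e without a neuropilin and that is also used by blood vessels, had the lowest difference of the plexins. It stood at 124, 111 and 132 CPM in isolated libraries 1 to 3, against 147, 190 and 128 CPM in control libraries 1 to 3. Control 3 lay between the isolated libraries, so the groups overlapped, and control 2 was far above the rest. The log2 difference was -0.34 (SE 0.14), and it was -0.17 without control 2. Markers of endothelial cells summed to between 205 and 213 CPM in isolated and between 224 and 239 CPM in control libraries, highest in control 2, with 7 of 8 lower in isolated libraries and 0 at 0. The striatal markers described next were highest in control 2 as well. The difference of Plxnd1 was -0.31 with the striatal level as a covariate and -0.40 with the myelin level. No fit was made with an endothelial level. The part of endothelial or striatal cells in this difference was not tested. Lower means in isolated libraries were also found for 8 of 8 astrocyte, 8 of 8 mural and 7 of 8 microglial markers. The same held for 7 of 8 meningeal and 10 of 12 upper-layer markers, and the astrocyte sum was likewise apart by group. Means were higher for 12 of 12 myelin, 6 of 9 oligodendrocyte progenitor, 8 of 12 deep-layer and 6 of 12 interneuron markers. Without isolated 3, 6 of 8 meningeal markers and 4 of 9 progenitor markers had a higher mean in isolated libraries. The myelin, astrocyte and mural counts were unchanged without isolated 3, but without control 2 only 5 of 8 mural markers were lower.

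The A-type plexins differed little between the groups, with 4 of 4 log2 differences between 0.02 and 0.08. Plxna2, the most abundant of them and a receptor for Sema6a, stood at 248, 251 and 252 CPM in isolated and 239, 230 and 251 CPM in control libraries, where control 3 overlapped with the isolated group. Plxna1 averaged 182 ± 18.1 CPM in isolated and 173 ± 36 CPM in control libraries, Plxna3 29.1 ± 1.71 and 28.7 ± 2.76 CPM, and Plxna4 175 ± 20.5 and 172 ± 15.2 CPM (SD, n = 3 each). A transcript on the opposite strand covers 10.7% of the exon bases of Plxna1. Strand use in counting is not stated, so the reads of both were not separated. Plxnb1, the receptor for Sema4d, stood at 94.1, 96.8 and 117 CPM in isolated and 107, 111 and 92 CPM in control libraries, with no separation. Plxnb2 averaged 68.1 ± 3.09 CPM in isolated and 66.7 ± 2.02 CPM in control libraries.

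Plxnc1, the receptor for Sema7a, stood at 68.8, 66.2 and 51.4 CPM in isolated and 58.4, 62.3 and 74 CPM in control libraries. Its ligand Sema7a stood at 254, 225 and 241 CPM in isolated and 288, 212 and 226 CPM in control libraries. For both the groups overlapped, and the log2 differences were -0.06 (SE 0.13) and -0.01 (SE 0.12). Receptor and ligand were not ordered alike over the libraries: Plxnc1 was highest in control 3 and Sema7a in control 1.

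Class 4 ligands, which act at synapses, in glia and in the immune system, had log2 differences between -0.01 and 0.15. Sema4a stood at 73.6, 78.5 and 66.9 CPM in isolated and 70.6, 58.6 and 68.7 CPM in control libraries. Isolated 1 and 2 were above all controls and isolated 3 was below 2 of them, and the log2 difference was 0.15 (SE 0.09). Sema4d, a ligand that oligodendrocytes carry, averaged 59.6 ± 4.53 CPM in isolated and 56.7 ± 3.34 CPM in control libraries. Sema4f, which binds the postsynaptic scaffold protein PSD-95, averaged 64.9 ± 1.94 and 65.4 ± 7.27 CPM, and Sema4b 23.2 ± 0.359 and 22.5 ± 1.43 CPM. Sema4c, a ligand of Plxnb2, averaged 13.8 ± 1.22 and 13.8 ± 2.03 CPM, and Sema4g 25.4 ± 0.22 and 25.2 ± 1.84 CPM, each in isolated and control libraries (SD, n = 3 each).

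Class 6 ligands, transmembrane proteins that bind A-type plexins, had log2 differences between -0.11 and 0.00. Sema6b, the steadiest of the 31 members, stood at 131, 132 and 138 CPM in isolated and 135, 131 and 135 CPM in control libraries, a ratio of 1.06 between the highest and the lowest library, where the median over all tested genes was 1.26. Sema6a averaged 28.1 ± 2.13 CPM in isolated and 28.6 ± 3.62 CPM in control libraries, Sema6c 20.6 ± 1.81 and 22.3 ± 3.42 CPM, and Sema6d 73 ± 8.29 and 75.6 ± 7.82 CPM (SD, n = 3 each). Their log2 differences were -0.03 (SE 0.11), -0.11 (SE 0.12) and -0.05 (SE 0.10).

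Several members moved over the libraries with markers of another region or cell type. Striatal markers, genes of the projection neurons of the neighbouring striatum, summed to between 919 and 3423 CPM in isolated and between 695 and 4634 CPM in control libraries. All 15 had a lower mean in isolated libraries, but without control 2 all 15 had a higher one, and 0 were at 0 in any library. Sema6a followed the order of this sum in all 6 libraries, highest in control 2 and isolated 3 and lowest in control 3. Sema5b, Sema3f, Sema3e and Plxnb1 also had control 2 and isolated 3 at the top and control 3 at the bottom. Sema4d followed the order of the myelin markers in all 6 libraries, with 64.7 CPM in isolated 3 at the top and 54.6 CPM in control 3 at the bottom, and Plxnb3 did so except for isolated 1 and isolated 2. These orders are over 6 libraries and were chosen after the values were seen, and the part of these cells in the levels was not tested.

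**Figure D4:**
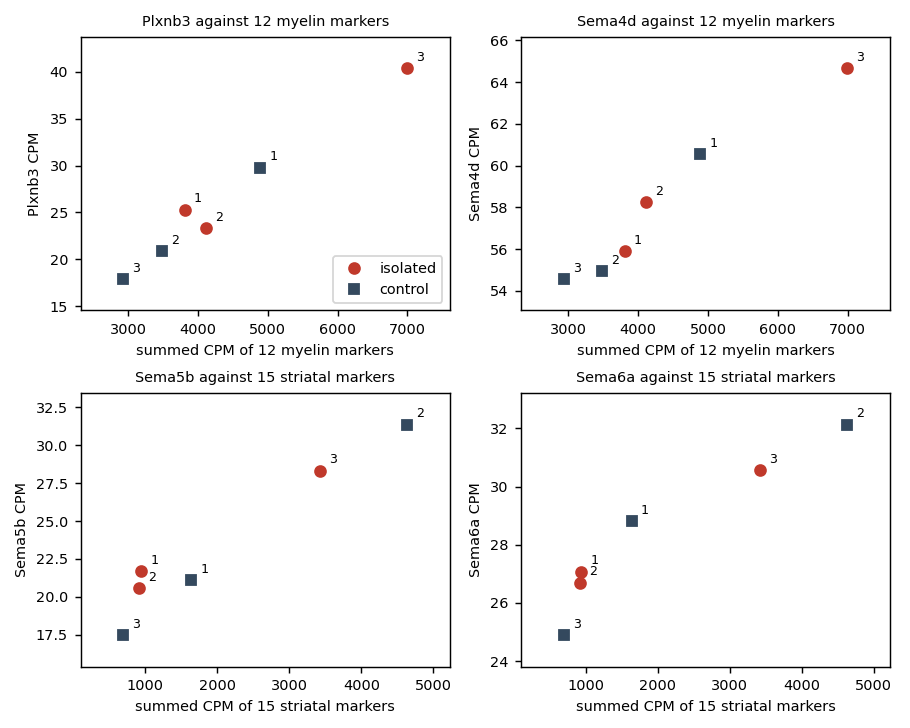
CPM of 4 members against the summed CPM of cell type markers in the same libraries, with isolated libraries as red circles and control libraries as dark squares, numbered by replicate. Plxnb3 and Sema4d rise with the 12 myelin markers, with isolated 3 at the right, and Sema5b and Sema6a with the 15 striatal markers, with control 2 at the right.

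Control 2 was the highest or lowest of the 6 libraries for 17 of 31 members, or 54.8%, and for 44% of all tested genes. Control 3 was the lowest library for 12 members and isolated 3 the highest for 10. Shares over all tested genes were not counted for these libraries, so the counts are not read as particular to the members. Over the members the median ratio between the highest and the lowest library was 1.34 in CPM. The ratio was 2.52 for Nrp2, 2.25 for Plxnb3, 1.87 for Sema3b and 1.8 for Sema3f, the widest of the 31.

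The listed length of a gene differs between libraries where a gene has several transcripts in use. It varied for 13 of the 32 members and was fixed for 19. Only Sema4c was apart by group, at 3755, 3780 and 3802 bases in isolated and 3742, 3743 and 3706 bases in control libraries. Among all tested genes with a varying length, 9.59% were apart by group in one direction or the other. Of the exon bases of Sema4c, 7.27% lie opposite an antisense gene.

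Genes that work with the family passed the test in 0 cases in either direction. Of 15 coreceptors and other semaphorin receptors 14 were tested, and 8 had a positive and 6 a negative log2 difference, with a median of 0.02. The adhesion molecule Nrcam, which joins Nrp2, averaged 59.2 ± 3.66 FPKM in isolated and 57.7 ± 3.52 FPKM in control libraries, L1cam, which joins Nrp1, 38.1 ± 1.83 and 38.7 ± 2.82 FPKM, and the contactin Cntn2 20.9 ± 3.22 and 19.4 ± 3.93 FPKM. Of 29 effectors inside the cell, 14 were positive and 15 negative with a median of 0.00. The actin-severing protein gene Cfl1 averaged 555 ± 7.98 FPKM in isolated and 557 ± 18.3 FPKM in control libraries, the GTPase gene Rac1 131 ± 5.53 and 135 ± 5.04 FPKM, and Mical2, an enzyme that oxidizes actin, 124 ± 18.8 and 109 ± 26.5 FPKM (SD, n = 3 each).

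The 16 proteoglycans, surface and matrix molecules some of which modulate Sema5a, had 7 positive and 9 negative log2 differences with a median of -0.03. Bcan averaged 75.4 ± 4.92 FPKM in isolated and 77.7 ± 5.21 FPKM in control libraries, Cspg5 73.5 ± 2.33 and 74.4 ± 2.41 FPKM, and Ncan 42.2 ± 0.632 and 44.4 ± 1.78 FPKM. Of the VEGF genes, some of whose products bind neuropilins, 5 of 5 were tested and 4 were negative, with a median of -0.14. Vegfa averaged 19.9 ± 1.14 FPKM in isolated and 23.4 ± 1.61 FPKM in control libraries with the groups apart, and its log2 difference was -0.24 (SE 0.07). Vegfb averaged 43.6 ± 0.612 and 43.9 ± 2.02 FPKM, and Vegfc 1.24 ± 0.21 and 1.49 ± 0.117 FPKM (SD, n = 3 each).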

How the data were processed

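Per the labels' protocols, total RNA was read in stretches of 50 bases. Each library has its own deposited table, which per the file headers gives an expected count (not normalized), an FPKM value and a length in bases for each gene. The submitters' processing notes name HISAT, Bowtie2, RSEM and mm10 with no version. Another deposited table, of FPKM values over 6 columns, was left aside since its column codes match no label. Missing genes were set to 0, and 1 entry without a symbol, at most 0.000947% of the reads, was left out.

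Expected counts were rounded and tested with edgeR 4.0.16 (R 4.3.3; filterByExpr with a minimum of 10 and a total of 15; TMM factors from 0.991 to 1.01; quasi-likelihood F-test, isolated against control, no covariates), which kept 15169 genes. Standard errors are the log2 difference divided by the root of F. The Benjamini-Hochberg adjustment ran over every tested gene, with a threshold of 0.05. DESeq2 1.42.0 and limma 3.58.1 were alternatives. The edgeR test was run on simulated counts of the same depth. False calls exceeded a share of 0.05 of the calls when the spread was drawn per gene. The main fit called 0 genes, so no call rests on this. The members, the gene lists and the libraries left out together were chosen with earlier results of these data known. Every member is named, and values per library are given for class 5, for members whose groups did not overlap, for the most abundant of each class, and for the 4 widest. Of each pathway list the 3 most abundant are named, and 1 partner gene is not reported here. Every pair of libraries differed beyond counting noise (chi-square of 2.89 to 20.4 per gene), so all 6 were kept as samples. Intervals and errors cover these libraries only.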

Additional observations from a re-analysis of the deposited data

How the results depend on the processing

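The count of members past the adjusted threshold was 0 in all 17 alternatives run. The log2 difference of Sema5a lay between 0.31 and 0.45 when 1 library was left out, and was 0.27 without control 2 and isolated 3 together. These values also reuse the libraries that singled Sema5a out and are a description only. Of 510 recomputed differences of the other 30 members, 3 moved by more than the spread between libraries (Nrp2, Sema3g and Sema6b, without control 2 and isolated 3) and 70 had the other sign. The median over ligands was -0.053 with the myelin level as a covariate and between -0.03 and 0.06 with 1 library left out, and that over receptors between 0.0082 and 0.084. The number of members whose groups did not overlap was 6 of 31 without control 1, where 21.4% of all tested genes did not overlap, 2 without control 2 (17% of all), 5 without control 3 (21.1%), 5 without isolated 1 (16.8%), 1 without isolated 2 (15.4%), 5 without isolated 3 (19.5%) and 8 without control 2 and isolated 3 (29.6%). Leaving each library out of the cell type marker counts was added after the data were seen.

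Over all genes, DESeq2 called 1 gene, Fkbp5, which is no member, and 306 at an unadjusted p under 0.05, against 535 with edgeR. That number was 903 with the striatal and 824 with the myelin level as a covariate, and between 369 and 860 with 1 library left out, the highest without control 3; the cause was not tested. With the replicate number as a block it was 331. No pairing by number was seen: same-numbered libraries deviated with correlations of 0.03, -0.27 and -0.49, and 0 of 6 correlated best with their own number. The deviations include the uneven striatal level (centred mean log2 CPM of -1.75 in control 3 and 1.37 in isolated 3). The check therefore cannot exclude a pairing. With 3 libraries a group, members with few counts, such as Sema3b, have wide errors.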

Other observations

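Among the tested partner genes, 12 of 64, or 18.8%, had groups that did not overlap, 4 higher and 8 lower in isolated libraries, at a background of 8.85% of all tested genes in one direction or the other. Those named here were chosen after their values were seen. None passed the adjusted threshold. The VEGF receptor gene Kdr averaged 9.67 ± 1.35 CPM in isolated and 12.9 ± 2.35 CPM in control libraries, and Flt1, another VEGF receptor gene, 61 ± 2.67 and 66.5 ± 1.24 CPM. Markers of endothelial cells, of which Flt1 is one, summed to between 205 and 213 CPM in isolated and between 224 and 239 CPM in control libraries, with 7 of 8 lower in isolated libraries and 4 of 8 apart. The integrin gene Itga1 averaged 6.67 ± 0.904 and 8.84 ± 1.38 CPM, the microglial receptor gene Trem2 7.73 ± 0.121 and 8.56 ± 0.207 CPM, and the receptor kinase gene Mst1r 1.6 ± 0.12 and 1.33 ± 0.206 CPM (SD, n = 3 each). Mst1r rested on 20 to 32 counts per library, with 27 in both isolated 2 and control 1. On FPKM its groups overlapped, and control 3 was the highest library at 0.52. Markers of microglia summed to between 317 and 335 CPM in isolated and between 335 and 363 CPM in control libraries, with 7 of 8 lower in isolated libraries and 3 of 8 apart, and 0 markers of either list were at 0 in any library. The part of these cells in the differences was not tested.

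Inside the cell, Farp2, a Rac activator used by Plxna1, averaged 7.5 ± 0.356 CPM in isolated and 6.19 ± 0.0828 CPM in control libraries. Dpysl4 averaged 41.1 ± 0.118 CPM in isolated and 38.5 ± 0.664 CPM in control libraries, and the GTPase gene Rras 7.07 ± 0.349 and 7.47 ± 0.0551 CPM. Of the proteoglycans, the syndecan gene Sdc3 averaged 199 ± 3.9 CPM in isolated and 221 ± 10.1 CPM in control libraries, and the glypican gene Gpc1 108 ± 3.73 and 93.4 ± 8.22 CPM (SD, n = 3 each).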
